A study of Homo sapiens with 6 samples.

Results

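A set of 9 human genes that descend from endogenous retroviruses and are annotated for, or named after, an envelope were followed across decitabine doses: ERVW-1, ERVFRD-1, ERVH48-1, ERVMER34-1, ERVV-1, ERVV-2, ERV3-1, ERVK3-1 and ERVK13-1. They were listed by symbol, with earlier results of these data known, and matched through the gene identifiers of the count tables, out of 58381 counted genes. Polyadenylated RNA was sequenced from 786-0 cells, an established clear cell renal carcinoma line, and the labels give every library, controls included, a SETD2 knockout genotype. SETD2 is the methyltransferase that trimethylates lysine 36 of histone H3. The 3 groups were SETD2 KO cells given DMSO, 100 nM decitabine or 300 nM decitabine on each of 3 days, with new medium on day 4 and harvest on day 5, and each group had 2 libraries. The labels name no clone, do not say if libraries of one group are from different cultures, and give no library with intact SETD2. The p-values therefore measure only library-to-library spread, which may be technical, and all comparisons are of dose within the knockout cells. GENCODE v29 types 7 of the genes as protein coding, ERVK13-1 as a processed transcript and ERVH48-1 as a long intergenic RNA, so an envelope reading frame is not annotated there for these last genes. The counts are of gene models. Repeat elements elsewhere in the genome are not counted in the files.

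Retroviral envelope proteins bind a receptor on a cell and fuse membranes, and a few captured envelopes serve the human placenta. Syncytin-1 (ERVW-1) binds the amino acid transporters SLC1A5 and SLC1A4 and syncytin-2 (ERVFRD-1) binds the lipid transporter MFSD2A, and both fuse trophoblast cells into the syncytiotrophoblast. Suppressyn (ERVH48-1) binds SLC1A5 and blocks syncytin-1. Outside the placenta such loci are mostly held silent, in part by DNA methylation at CpG dinucleotides, and decitabine is a deoxycytidine analogue that traps DNA methyltransferases so that this methylation is lost over cell divisions.

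Because CpG methylation is what decitabine removes, the CpG content of the genes' promoters is shown before the values. RefSeq promoter windows on GRCh38.p14 (300 bases, from 250 before to 50 after a start site) matched 6 of the 9 genes, in 7 windows. Over all 35116 windows the median was 14 CpG and 96.0% held at least 1. The counts in the windows were 5 for ERVW-1 and for ERVV-1, 9 and 4 for the 2 windows of ERV3-1, 24 for ERVMER34-1, 27 for ERVK3-1 and 44 for ERVK13-1. For ERVK13-1, 4.2% of all windows held at least as many. ERVFRD-1, ERVH48-1 and ERVV-2 had no matching entry. The ERVW-1 window (chr7:92471375-92471674, minus strand) lies inside the counted gene, 6362 bp from its first base. Of these, 4 windows are printed because they span the range of CpG content and of dose response: a gene that fell (ERV3-1, chr7:65006638-65006937, minus strand), one that rose (ERVMER34-1, chr4:52751376-52751675, minus strand), one with no read in DMSO cells (ERVV-1, chr19:53013671-53013970, plus strand) and the richest in CpG (ERVK13-1, chr16:2673390-2673689, minus strand). Each reads 5′ to 3′ on the gene's strand, with capitals marking CG dinucleotides, which read the same on both strands.
ERVMER34-1: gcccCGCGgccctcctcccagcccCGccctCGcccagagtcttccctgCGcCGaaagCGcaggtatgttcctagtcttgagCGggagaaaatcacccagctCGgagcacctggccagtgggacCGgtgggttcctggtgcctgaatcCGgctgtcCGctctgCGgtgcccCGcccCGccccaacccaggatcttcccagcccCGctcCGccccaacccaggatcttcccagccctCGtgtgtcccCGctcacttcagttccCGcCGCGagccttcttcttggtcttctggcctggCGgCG
ERV3-1: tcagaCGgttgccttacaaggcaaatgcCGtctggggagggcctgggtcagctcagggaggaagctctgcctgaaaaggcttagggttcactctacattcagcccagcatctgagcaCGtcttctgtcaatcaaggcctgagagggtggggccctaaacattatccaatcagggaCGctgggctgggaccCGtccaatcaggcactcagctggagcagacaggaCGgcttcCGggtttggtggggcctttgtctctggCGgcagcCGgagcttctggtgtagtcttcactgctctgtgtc
ERVV-1: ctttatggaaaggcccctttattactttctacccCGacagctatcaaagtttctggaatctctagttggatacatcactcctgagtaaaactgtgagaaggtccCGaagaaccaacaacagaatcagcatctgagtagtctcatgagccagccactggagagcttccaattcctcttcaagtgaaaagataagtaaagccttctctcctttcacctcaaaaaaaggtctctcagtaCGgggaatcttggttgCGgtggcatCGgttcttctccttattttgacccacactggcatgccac
ERVK13-1: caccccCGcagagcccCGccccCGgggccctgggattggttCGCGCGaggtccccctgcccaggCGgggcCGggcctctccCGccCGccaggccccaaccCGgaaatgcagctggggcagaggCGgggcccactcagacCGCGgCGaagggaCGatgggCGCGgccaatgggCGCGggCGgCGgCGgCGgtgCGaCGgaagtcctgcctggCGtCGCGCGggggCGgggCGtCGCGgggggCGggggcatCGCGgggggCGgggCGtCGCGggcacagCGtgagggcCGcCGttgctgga
Of the windows above the median, that of ERVMER34-1 (24 CpG) belongs to a gene that rose, as the values below show. Those of ERVK3-1 (27 CpG) and ERVK13-1 (44 CpG) belong to genes that fell. ERVH48-1, which rose, had no window. The printed ERV3-1 window also spans the counted start of ZNF117, an overlapping gene on the same strand. A link between CpG content and dose response was not tested, and methylation itself was not measured in these files.

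**Figure D1:**
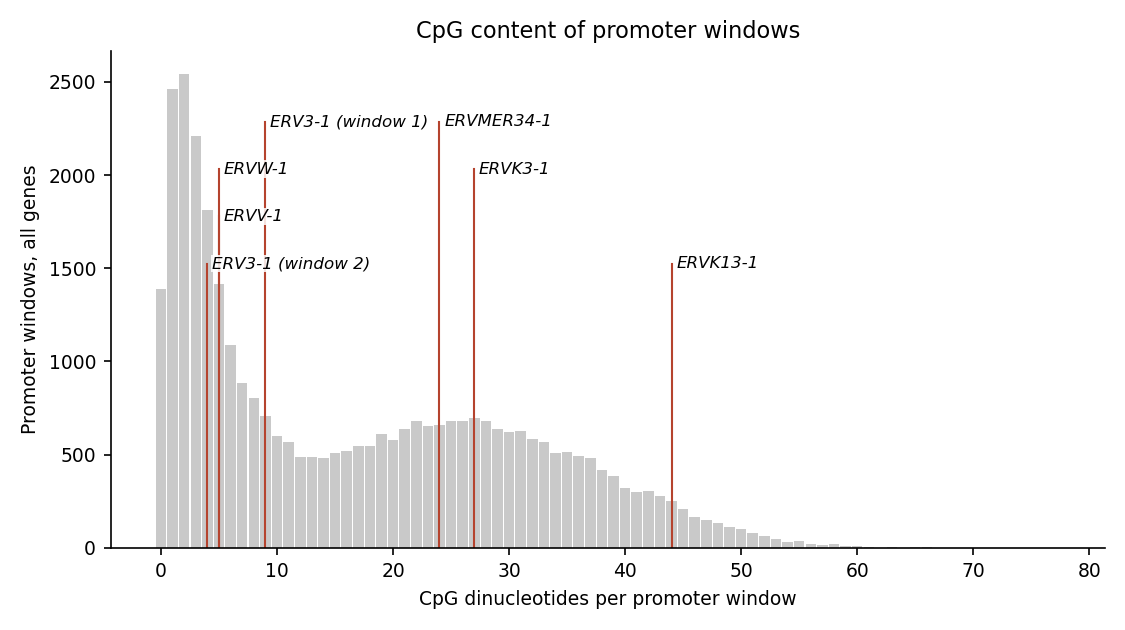
CpG dinucleotides per 300-base promoter window (x axis) against the number of windows over all genes (y axis, grey bars), with red lines at the 7 windows of the 6 matched genes. ERVW-1 and ERVV-1, at 5 CpG, and both ERV3-1 windows lie below the median of 14, and ERVMER34-1, ERVK3-1 and ERVK13-1 lie above it.

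The 9 genes did not move together. At 300 nM, ERVH48-1 was about 51.5-fold higher than with DMSO and ERVMER34-1 about 4.05-fold higher, while ERVW-1, ERV3-1, ERVK3-1 and ERVK13-1 were lower by 17.1-, 6.16-, 1.91- and 1.99-fold. ERVV-1 and ERVV-2 had no read with DMSO, 2 to 7 reads (ERVV-1) and 2 to 28 reads (ERVV-2) in the decitabine libraries. ERVFRD-1 stayed at 16 reads or fewer in every library. Among 23160 genes that passed the low-count filter, 42.7% were called at 100 nM against DMSO (24.0% higher, 18.7% lower), 65.9% at 300 nM against DMSO (34.8% higher, 31.1% lower) and 43.4% at 300 nM against 100 nM (20.0% higher, 23.4% lower), at an adjusted p under 0.05 in edgeR's two-sided quasi-likelihood test. Of the 9 genes, 7 passed the filter. ERVV-2, with 0 DMSO reads, did so only through decitabine libraries and could be called only as higher, so it is left out of the counts against DMSO. Of the other 6, ERVH48-1 was called higher and ERV3-1 lower at 100 nM against DMSO. At 300 nM against DMSO 2 were called higher (ERVH48-1, ERVMER34-1) and 4 lower (ERVW-1, ERV3-1, ERVK3-1, ERVK13-1). The matching shares are those over the 20503 genes with a DMSO library at the filter's minimum of 0.107 CPM. Of these, 19.0% were higher and 21.1% lower at 100 nM against DMSO, and 28.9% and 35.1% at 300 nM. At 300 nM against 100 nM ERVH48-1 was called higher and ERVW-1, ERV3-1, ERVK3-1 and ERVK13-1 lower. In CPM, the same 6 genes had groups that did not overlap at 100 nM against DMSO and again at 300 nM against DMSO. In 2 of them both decitabine libraries were higher (ERVH48-1, ERVMER34-1), and in 4 both were lower. ERVFRD-1 failed the filter, and ERVV-1 and ERVV-2, with 0 DMSO reads, could not lie lower, so these genes are left out here. Over all tested genes, 38.6% and 36.2% were so separated in these directions at 100 nM and 43.2% and 40.6% at 300 nM. These shares include 2657 genes that passed the filter only through decitabine libraries. Between 300 nM and 100 nM, 1 gene was higher and 4 were lower without overlap, against 35.3% and 37.8% of all tested genes. With so many genes called or separated at these doses, the counts of the 9 are a description. Summed over the 9 genes, the level was 41.8 and 41.2 CPM (reads per 1000000 reads assigned to genes, scaled between libraries by TMM) with DMSO, 28.7 and 34 CPM at 100 nM, and 25.3 and 27.8 CPM at 300 nM.

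**Figure D2:**
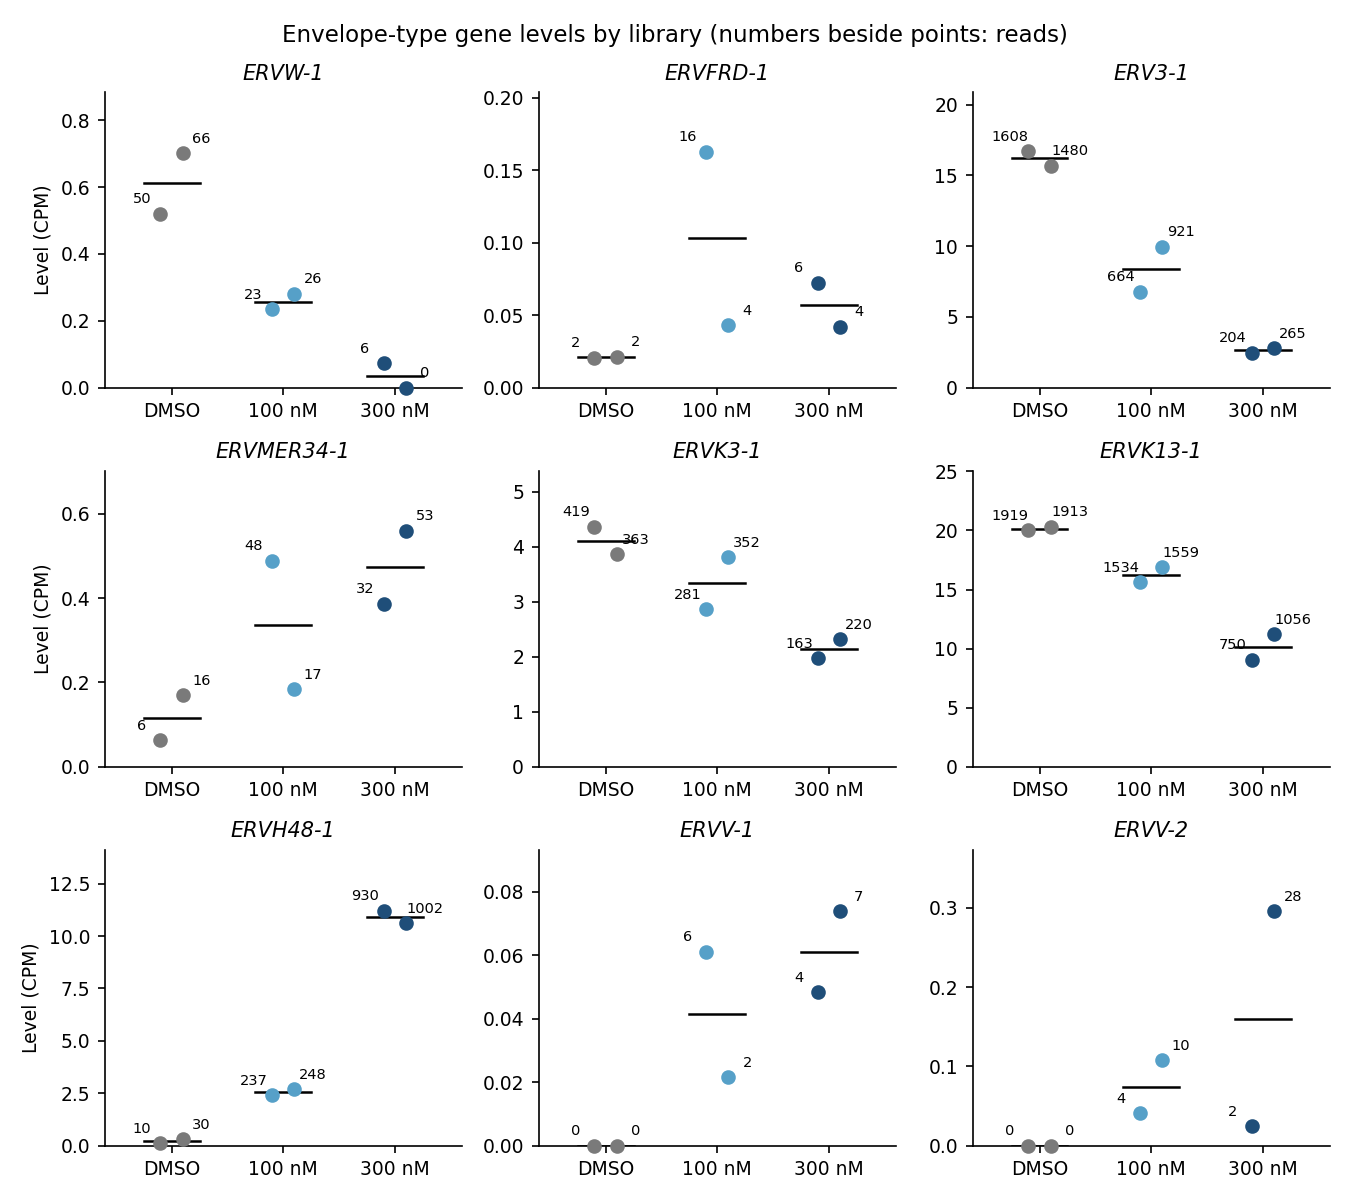
Level in CPM (y axis, linear from 0, own scale per panel) of each gene in each library of DMSO, 100 nM and 300 nM cells (x axis). Points are libraries with their read numbers, and black lines are means of the 2 libraries. ERVH48-1 climbs to 1002 reads at 300 nM, while ERVW-1 and ERV3-1 step down at each dose.

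ERVW-1 (syncytin-1, ENSG00000242950.6, chr7:92468380-92477986, minus strand, GRCh38) had 50 and 66 reads in DMSO cells, 23 and 26 in 100 nM cells, and 6 and 0 in 300 nM cells. The groups did not overlap, and each dose lay below the one before it. Its level was 0.611 ± 0.129 CPM with DMSO, 0.258 ± 0.0332 CPM at 100 nM and 0.0362 ± 0.0513 CPM at 300 nM (SD, n = 2 each), so syncytin-1 RNA was scarce at the start and close to the limit of detection at the higher dose. The log2 fold change was -1.24 at 100 nM against DMSO (SE 0.61, adjusted p = 0.115, edgeR), -4.10 at 300 nM against DMSO (SE 0.79, adjusted p = 2.3e-04) and -2.86 at 300 nM against 100 nM (SE 0.82, adjusted p = 0.010). From reads alone, 300 nM libraries held 0.0554 of the DMSO level (95% interval 0.0199 to 0.124, counting error only). The 0 in the second 300 nM library allows up to 3 reads, or 0.031 CPM, and the fitted fold at 300 nM leaned on it: without replicate 2 of 300 nM the log2 fold change against DMSO was -3.05 and against 100 nM -1.81 (adjusted p = 0.055), and without replicate 1, with 0 reads left in the group, the fit gave -8.86 and -7.62, which are no bounds. At 100 nM against DMSO it was called without either 300 nM library (adjusted p = 0.038 and 0.034), which changes only the shared estimate of spread. In bulk RNA, fewer cells with a transcript and less of it per cell cannot be told apart, here and for every gene below.

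ERVFRD-1 (syncytin-2, ENSG00000244476.2, chr6:11102489-11111732, minus strand) had 2 and 2 reads in DMSO cells, 16 and 4 in 100 nM cells, and 6 and 4 in 300 nM cells. The decitabine libraries all lay above the DMSO libraries, but the highest was a single library at 100 nM. It did not pass the low-count filter. The fit without that filter, in which 15.3% of 37599 genes were called higher at 100 nM and 22.0% at 300 nM against DMSO, put its log2 fold change at 2.24 for 100 nM (SE 1.43, adjusted p = 0.301, edgeR) and 1.39 for 300 nM (SE 1.47, adjusted p = 0.513). In pooled reads the ratio to DMSO was 4.99 at 100 nM (95% interval 1.67 to 20.1) and 2.68 at 300 nM (0.773 to 11.7), counting error only. At 100 nM, 16 of the 20 reads came from replicate 1. Syncytin-2 RNA was therefore at the edge of detection in all 3 groups, and edgeR called no difference at this depth.

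ERVH48-1 (suppressyn, ENSG00000233056.2, chr21:42916803-42925646, minus strand), whose product is secreted and binds the syncytin-1 receptor, had 10 and 30 reads in DMSO cells, 237 and 248 in 100 nM cells, and 930 and 1002 in 300 nM cells. The groups were far apart and ordered by dose. Its level was 0.212 ± 0.152 CPM with DMSO, 2.55 ± 0.19 CPM at 100 nM and 10.9 ± 0.462 CPM at 300 nM (SD, n = 2 each). The log2 fold change was 3.59 at 100 nM against DMSO (SE 0.30, adjusted p = 4.2e-08, edgeR), 5.69 at 300 nM against DMSO (SE 0.30, adjusted p = 3.4e-11) and 2.10 at 300 nM against 100 nM (SE 0.22, adjusted p = 1.4e-06). In pooled reads this was 12.1-fold at 100 nM (8.76 to 17.1) and 51.8-fold at 300 nM (37.9 to 72.7), counting error only. The DMSO libraries differed 3-fold in reads, so the fold depends on which is used: without DMSO replicate 1 the log2 fold change was 2.99 (100 nM) and 5.09 (300 nM), and without DMSO replicate 2 it was 4.60 and 6.69. Suppressyn and syncytin-1, inhibitor and fusogen in the placenta, thus moved in opposite directions in these cells.

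Receptors of the syncytins and suppressyn and proteases that process envelopes had reads in every library, the scarcest being the convertase gene PCSK6 with 22 to 58. Of these 7 genes, all tested, 2 were higher and 1 lower at 100 nM against DMSO, 3 were higher and 1 lower at 300 nM against DMSO, and 2 were higher at 300 nM against 100 nM. Their median log2 fold change was -0.01, 0.23 and 0.22 in these comparisons, against 0.03, 0.05 and -0.04 over all tested genes. In the same order, 24.0%, 34.8% and 20.0% of all tested genes were higher and 18.7%, 31.1% and 23.4% lower. MFSD2A, the syncytin-2 receptor, had 1368 and 1437 reads in DMSO cells, 3115 and 3043 in 100 nM cells, and 2761 and 3005 in 300 nM cells, a log2 fold change against DMSO of 1.13 for 100 nM and 1.14 for 300 nM (adjusted p = 8.8e-07 and 3.1e-07, edgeR), or 0.39 at 300 nM with exon length and GC offsets. SLC1A5 and SLC1A4, the syncytin-1 receptors, were at log2 fold changes of -0.02 and -0.01 at 100 nM and 0.23 and 0.21 at 300 nM, none of them called, but with the offsets SLC1A5 was called lower at both doses (log2 -0.65 and -0.86). FURIN, a protease that cleaves envelope precursors into their mature subunits, was called higher at both doses (log2 0.28 and 0.77, adjusted p = 0.033 and 2.9e-06). Its call at 100 nM was lost without any one of the DMSO or 100 nM libraries (adjusted p = 0.112 to 0.224), and with the offsets its sign turned (log2 -0.24, adjusted p = 0.003, at 100 nM and -0.13, adjusted p = 0.067, at 300 nM), so its direction is uncertain. The related protease PCSK7 rose at 300 nM (log2 0.49, adjusted p = 0.001, and 1.28 with the offsets). PCSK5, another proprotein convertase, fell by 1.54 and 1.31 on the log2 scale (adjusted p = 9.9e-07 and 2.3e-06). Without FURIN's call the number higher at 100 nM was 1, the number higher at 300 nM was 5 without replicate 2 of 300 nM, and between the doses it was 1 without replicate 2 of 100 nM and 4 without replicate 2 of 300 nM.

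**Figure D3:**
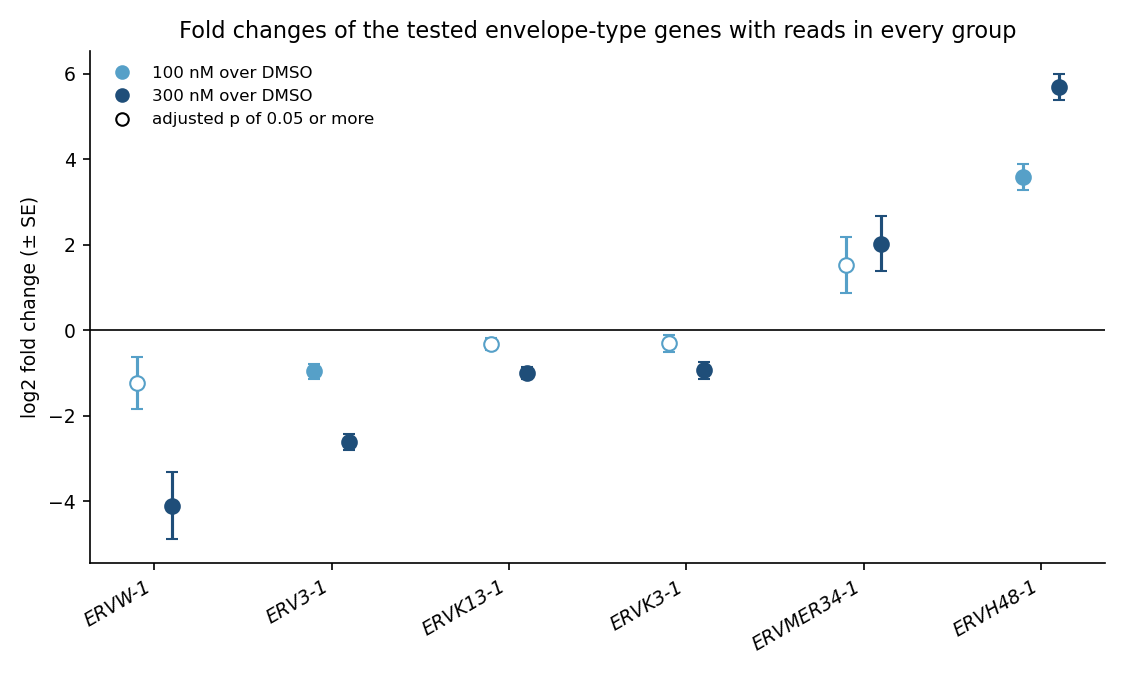
Log2 fold change against DMSO with its SE (y axis) for the 6 tested genes that had reads in every group (x axis), at 100 nM (light) and 300 nM (dark). Open points had an adjusted p of 0.05 or more. ERVH48-1 and ERVMER34-1 lie above 0 and ERVW-1, ERV3-1, ERVK13-1 and ERVK3-1 below it, farther from 0 at 300 nM in each case.

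ERVMER34-1 (ENSG00000226887.7, chr4:52722618-52751640, minus strand) encodes HEMO, an old envelope protein shed from placenta and stem cells. It had 6 and 16 reads in DMSO cells, 48 and 17 in 100 nM cells, and 32 and 53 in 300 nM cells. All decitabine libraries lay above both DMSO libraries, but the lower 100 nM library did so by 1 read, and the 100 nM and 300 nM groups overlapped. Its level was 0.116 ± 0.0762 CPM with DMSO, 0.337 ± 0.216 CPM at 100 nM and 0.473 ± 0.122 CPM at 300 nM (SD, n = 2 each). The log2 fold change against DMSO was 1.53 at 100 nM (SE 0.65, adjusted p = 0.067, edgeR) and 2.02 at 300 nM (SE 0.64, adjusted p = 0.011), and between the doses 0.49 (SE 0.58, adjusted p = 0.530). The call at 300 nM was lost without DMSO replicate 1 (log2 1.47, adjusted p = 0.078) or without replicate 2 of 300 nM (log2 1.72, adjusted p = 0.071), and without DMSO replicate 2 the log2 fold change was 2.90. At 100 nM the value rested on single libraries: it was called without DMSO replicate 2 (log2 2.41, adjusted p = 0.027) or without replicate 2 of 100 nM (log2 2.06, adjusted p = 0.020), and was 0.98 without DMSO replicate 1 (adjusted p = 0.321) and 0.68 without replicate 1 of 100 nM (adjusted p = 0.572).

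ERVV-1 (ENSG00000269526.1, chr19:53013921-53016122, plus strand) and ERVV-2 (ENSG00000268964.1, chr19:53044738-53051076, plus strand) are neighbouring envelope genes 28.6 kb apart that are known from placenta. Neither had a read with DMSO, where 0 allows up to 3 reads per library, or 0.0321 and 0.0323 CPM. ERVV-1 had 6 and 2 reads at 100 nM and 4 and 7 at 300 nM, and ERVV-2 had 4 and 10 at 100 nM and 2 and 28 at 300 nM. Every decitabine library thus held reads of both genes, with 1 library at 300 nM far above the rest for ERVV-2. Pooled over libraries, the exact 95% lower limit of the ratio to DMSO, which counts the error of both groups, was 1.7-fold at 100 nM and 2.69-fold at 300 nM for ERVV-1, and 3.31-fold and 8.19-fold for ERVV-2. For ERVV-2 at 300 nM, 28 of the 30 reads came from replicate 2, and the 2 reads of replicate 1 lie under the limit of 3 that a count of 0 allows. No edgeR test of ERVV-2 against DMSO is given from the filtered fit, since decitabine libraries alone carried it past the filter. With 0 DMSO reads the ratio of either gene could only lie above 1, so the limits above describe reads and are no test of dose. ERVV-2 was not called between the doses (adjusted p = 0.430, edgeR). ERVV-1 did not pass the low-count filter, and in the edgeR fit without it had an adjusted p of 0.187 at 100 nM and 0.089 at 300 nM. In that fit ERVV-2 was called at both doses against DMSO (adjusted p = 0.014 and 8.4e-04). With 0 DMSO reads each gene could be called there only as higher, so these values are no support for a rise. The genes are near copies: of the 50-base words in their transcripts, 51.0% of those of ERVV-1 and 46.1% of those of ERVV-2 occur in the other, so reads may have been shared or lost between them. Both mates of a pair were counted, and 70.0% to 74.4% of counts between 1 and 10 were even, so these reads stand for fewer fragments, and limits in fragments would lie lower.

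ERV3-1 (ENSG00000213462.4, chr7:64990809-65006743, minus strand) carries the envelope frame of the single-copy ERV3 provirus and is expressed in placenta and many other tissues. It was among the highest of the 9 genes and fell at each dose, with 1608 and 1480 reads in DMSO cells, 664 and 921 in 100 nM cells, and 204 and 265 in 300 nM cells. No groups overlapped. Its level was 16.2 ± 0.695 CPM with DMSO, 8.37 ± 2.26 CPM at 100 nM and 2.63 ± 0.236 CPM at 300 nM (SD, n = 2 each). The log2 fold change was -0.96 at 100 nM against DMSO (SE 0.17, adjusted p = 2.4e-04, edgeR), -2.62 at 300 nM against DMSO (SE 0.19, adjusted p = 1.8e-09) and -1.67 at 300 nM against 100 nM (SE 0.19, adjusted p = 2.3e-06). ERV3-1 transcripts are known to read on into ZNF117, a zinc finger gene on the same strand whose counted interval overlaps it. ZNF117 had 2542 and 2891 reads in DMSO cells, 927 and 1223 in 100 nM cells, and 100 and 155 in 300 nM cells, a log2 fold change against DMSO of -1.33 for 100 nM and -4.32 for 300 nM (adjusted p = 6.8e-06 and 1.0e-11). The overlap covers 372 exon bases, 8.13% of those of ERV3-1, so most ERV3-1 reads could be assigned apart from ZNF117. The difference between the fold changes of the 2 genes was not tested.

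ERVK3-1 (ENSG00000142396.10, chr19:58305319-58315663, plus strand) and ERVK13-1 (ENSG00000260565.6, chr16:2660349-2673444, minus strand) are loci of the HERV-K group, and both fell by about 2-fold at 300 nM. ERVK13-1 had 1919 and 1913 reads in DMSO cells, 3093 over both 100 nM libraries (15.6 and 16.9 CPM), and 750 and 1056 reads in 300 nM cells, with no overlap between groups. Its level was 20.2 ± 0.274 CPM with DMSO, 16.3 ± 0.875 CPM at 100 nM and 10.1 ± 1.48 CPM at 300 nM (SD, n = 2 each). The log2 fold change was -0.31 at 100 nM against DMSO (SE 0.14, adjusted p = 0.081, edgeR), -0.99 at 300 nM against DMSO (SE 0.14, adjusted p = 8.5e-06) and -0.68 at 300 nM against 100 nM (SE 0.14, adjusted p = 8.3e-04). The value at 100 nM lay near the threshold and was called under 8 of 15 alternative settings. ERVK3-1 had 419 and 363 reads in DMSO cells, 281 and 352 in 100 nM cells, and 163 and 220 in 300 nM cells, and its groups did not overlap either. Its level was 4.11 ± 0.351 CPM with DMSO, 3.34 ± 0.669 CPM at 100 nM and 2.15 ± 0.251 CPM at 300 nM (SD, n = 2 each). Its log2 fold change against DMSO was -0.30 for 100 nM (SE 0.20, adjusted p = 0.242, edgeR) and -0.94 for 300 nM (SE 0.20, adjusted p = 6.8e-04), and it was -0.63 between the doses (SE 0.20, adjusted p = 0.019). The last call was lost without replicate 2 of 100 nM (adjusted p = 0.229) without replicate 1 of 300 nM (adjusted p = 0.108), and with exon length and GC offsets (log2 -0.36, adjusted p = 0.126). Of the 5023 exon bases of ERVK3-1, 2593 (51.6%) also belong to exons of other genes. The antisense RNA AC010642.2 shares 41.2% and, on the same strand, AC020915.1 shares 17.4% and AC020915.5 17.2%. Counting did not use strand, so the reads of ERVK3-1, AC010642.2 and AC020915.1 are uncertain in part.

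Compared per exon length, the order of the genes changed with dose. With DMSO, ERV3-1 was highest at 3.55 CPM per kb, followed by ERVK13-1 at 2.25 and ERVK3-1 at 0.818. ERVW-1 (0.0997), ERVH48-1 (0.0744) and ERVMER34-1 (0.0285) came next, and each overlapped the next of them in range over libraries. At 100 nM, ERV3-1 and ERVK13-1 overlapped at 1.83 and 1.81 CPM per kb, ERVH48-1 had passed ERVK3-1 at 0.897 against 0.664, and the 5 genes from ERVMER34-1 (0.0825) down to ERVV-1 (0.0188) each overlapped the next. At 300 nM, ERVH48-1 was highest at 3.84 CPM per kb, above ERVK13-1 at 1.13, ERV3-1 at 0.575 and ERVK3-1 at 0.427, with no overlap among these. ERVMER34-1 (0.116), ERVV-2 (0.0658), ERVV-1 (0.0278) and ERVFRD-1 (0.0177) overlapped pairwise in that order, and ERVW-1 was lowest at 0.00591 CPM per kb.

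**Figure D4:**
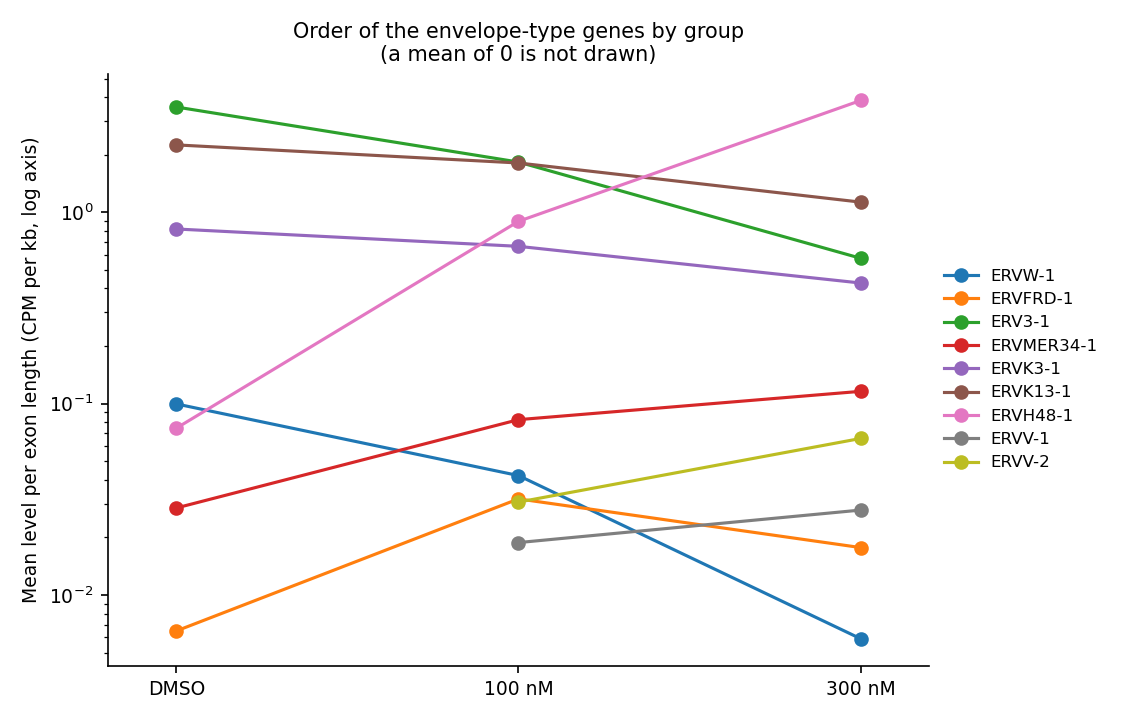
Mean level per exon length (y axis, CPM per kb, log axis) of the 9 genes in DMSO, 100 nM and 300 nM cells (x axis), with means of 0 left undrawn. ERVH48-1 is the highest at 300 nM, at 3.84 CPM per kb against 0.0744 with DMSO, and ERVW-1 is the lowest there.

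The genes overlapping or nearest each locus were examined in the same fit. Around ERVH48-1, NDUFV3, a subunit gene of respiratory complex I that ends 3.5 kb away, and PKNOX1, a homeobox gene 48.9 kb away, were at log2 fold changes of 0.17 (adjusted p = 0.220, edgeR) and 0.26 (adjusted p = 0.064) at 300 nM against DMSO, neither of them called. Around ERVMER34-1 at the same dose, the small GTPase gene RASL11B, 110.6 kb away, rose with a log2 fold change of 2.80 (adjusted p = 2.9e-04; 68 and 62 reads at 300 nM against 14 and 6 with DMSO), and the deubiquitinase gene USP46, 63.3 kb away, was at -1.09 (adjusted p = 1.4e-06). Beside ERVK13-1, KCTD5 rose by 1.40 (adjusted p = 6.1e-09) while PDPK1, a kinase gene, was at -0.07 (adjusted p = 0.567). A snoRNA gene inside ERVMER34-1 (RF00568) had no read in any library, and AC020915.5, which overlaps ERVK3-1 on the same strand, had 2 reads in 1 DMSO library and none in the others.

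Several neighbours of the genes that fell were lower at 300 nM against DMSO, though KCTD5 beside ERVK13-1 rose and PDPK1 was not called. Of all tested genes 31.1% were lower in this comparison, and USP46 beside ERVMER34-1, which rose, was lower too. Around ERVW-1 at 300 nM against DMSO, the antisense RNA AC007566.1, which spans the locus but shares no exon base, was at -2.87 (adjusted p = 0.001, edgeR) and GATAD1 at -0.33 (adjusted p = 0.022). Besides ZNF117, ZNF92 and ZNF273 on either side of ERV3-1 were at -2.02 (adjusted p = 5.6e-08) and -0.56 (adjusted p = 0.010). ZNF8 beside ERVK3-1 was at -1.18 (adjusted p = 2.5e-05) and ZSCAN22 on its other side at -0.16 (adjusted p = 0.403). AC010642.2, at -0.68 (adjusted p = 0.021), and AC020915.1, at -0.13 (adjusted p = 0.826), share exon bases with ERVK3-1. The zinc finger genes flanking the ERVV pair, where reads appeared, were also lower, ZNF816 at -1.63 (adjusted p = 3.0e-06) and ZNF160 at -1.91 (adjusted p = 1.6e-08), and the pseudogene ZNF702P overlapping ERVV-1 on the other strand was at -0.26 (adjusted p = 0.150). Around ERVFRD-1, SMIM13, which overlaps it on the other strand, was at -0.21 (adjusted p = 0.189), NEDD9 at 0.28 (adjusted p = 0.103) and the fatty acid elongase gene ELOVL2 at -0.71 (adjusted p = 2.9e-04). Among these, the calls of GATAD1, ZNF273, AC010642.2 and AC007566.1 were each lost without one or another single library (adjusted p = 0.052 to 0.133), and PKNOX1 (adjusted p = 0.022 without replicate 1 of 300 nM) and ZNF702P (adjusted p = 0.026 without replicate 2 of 300 nM) gained one. Offsets for exon length and GC content, which moved the median of all tested genes by -0.38, turned the sign of USP46 to 0.09, ELOVL2 to 0.15 and ZNF273 to 1.36, and left ZNF117 at -2.15. They also moved ZNF92 to -0.53, ZNF160 to -0.91, KCTD5 to 0.45 and RASL11B to 1.96, all still called, AC010642.2 to -1.36 and ZSCAN22 to -0.87 (adjusted p = 5.7e-05), and gave calls to PKNOX1 (0.62) and NEDD9 (0.56). Under the same offsets ERVH48-1 was at 5.03, ERVMER34-1 at 2.08, ERV3-1 at -2.67, ERVW-1 at -3.98, ERVK13-1 at -0.82 and ERVK3-1 at -0.76.

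**Figure D5:**
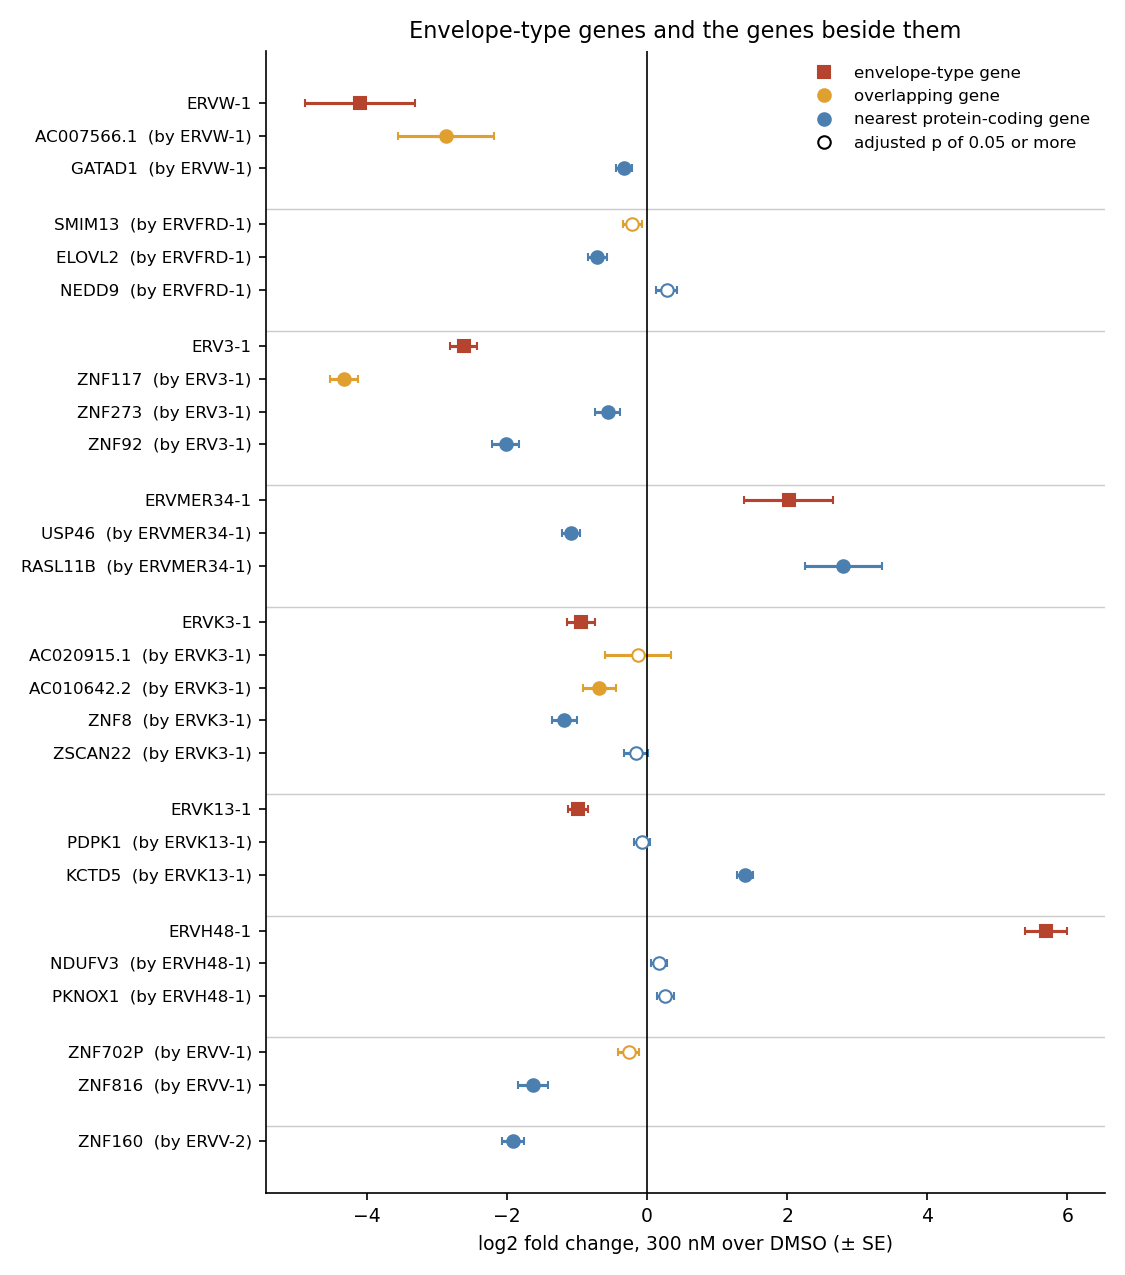
Log2 fold change at 300 nM over DMSO with its SE (x axis) for the envelope-type genes (red squares), genes that overlap them (yellow) and the nearest protein-coding genes (blue), grouped by locus down the page. Open points had an adjusted p of 0.05 or more, and ERVFRD-1, ERVV-1 and ERVV-2, which failed the filter or had no DMSO read, are not drawn. ERVH48-1 at 5.69 stands beside NDUFV3 and PKNOX1 near 0.

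For each of the 7 tested genes the protein-coding genes with the most similar profile over the 6 libraries were found, by the root mean square distance between log2 CPM values centred on their means, among about 12430 genes averaging 1 CPM or more. ERVH48-1 was most like ARC (distance 0.10), a neuronal gene that itself derives from a retrotransposon and that had 10 and 28 reads in DMSO cells, 274 and 244 in 100 nM cells, and 980 and 942 in 300 nM cells, and like the autophagy gene MAP1LC3A (0.20), and 30 genes lay within 0.5. ERVMER34-1 was most like C16orf86 (0.37) and MESP1 (0.39), with 34 genes within 0.5, and ERVW-1 most like ZBTB41 (0.49) and KIAA1551 (0.57). ERV3-1 was most like CDC7 (0.04), a kinase gene of replication origin firing, and TUT7 (0.05), a uridylyltransferase gene, with 1546 genes within 0.5. The patterns of ERVK3-1 (TAF9 0.04, PCLO 0.05) and ERVK13-1 (KLHL15 0.01, SETD5 0.02) were common ones, with 5956 and 5846 genes within 0.5. ERVV-2 had no gene within 0.5, the nearest being MAP3K7CL (0.68) and ARG2 (0.72). ERVV-2 with DMSO and ERVW-1 in a 300 nM library had 0 reads, so their profiles lean on the small count added before taking logs (prior count 2). Their larger distances therefore cannot be read as unusual dose patterns.

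Another 6 genes in the annotation are named for endogenous retroviruses, and 3 of them passed the filter. None was higher, and 2 were lower at 100 nM against DMSO, 1 at 300 nM against DMSO and 1 at 300 nM against 100 nM (medians -1.02, -1.43 and -0.05). In these comparisons 24.0%, 34.8% and 20.0% of all tested genes were higher and 18.7%, 31.1% and 23.4% lower. ERVK9-11 had 625 and 607 reads in DMSO cells, 269 and 339 in 100 nM cells, and 139 and 173 in 300 nM cells, a log2 fold change of -1.02 and -1.88 against DMSO (adjusted p = 2.8e-04 and 2.1e-07, edgeR), or -1.26 at 300 nM with exon length and GC offsets. ERVH-1 had 20 and 33 reads in DMSO cells, 0 and 4 in 100 nM cells, and 12 and 6 in 300 nM cells, and was called lower only at 100 nM (adjusted p = 0.010, against 0.162 at 300 nM). The difference between its doses missed the threshold (adjusted p = 0.121), and the 2 lower at 100 nM became 1 without DMSO replicate 2 or without replicate 1 of 100 nM. ERVMER61-1, the third, was at -0.12 and -0.17 and was not called (adjusted p = 0.718 and 0.536), but with the offsets it was called higher at 300 nM (log2 1.65, adjusted p = 1.2e-05). The remaining 3, ERVE-1, ERVFRD-3 and ERVK-28, had at most 8 reads in any library.

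Of 50 listed genes of the syncytiotrophoblast and placenta, where most of these envelopes are known, 16 did not pass the filter, among them CGA, CSH1, CSHL1, GH2, INSL4 and VGLL1, which code for placental hormones and a trophoblast cofactor and had 0 reads in both DMSO and both 100 nM libraries. A further 10, such as KISS1, XAGE3 and PSG11, lay under the filter's minimum of 0.107 CPM in both DMSO libraries, passed through decitabine libraries, and could hardly be called other than higher against DMSO. Of the remaining 24, 12 were higher and 3 lower at 100 nM against DMSO, 18 higher and 2 lower at 300 nM against DMSO, and 13 higher and 1 lower at 300 nM against 100 nM. Over all 20503 genes with a DMSO library at that minimum, 19.0% were higher and 21.1% lower at 100 nM against DMSO. The shares were 28.9% and 35.1% at 300 nM against DMSO, and 18.8% and 26.3% at 300 nM against 100 nM. The median log2 fold changes of the 24 were 0.69, 1.65 and 0.57, against -0.07, -0.14 and -0.10 over the 20503. With the 10 counted too, 19 were higher and 3 lower at 100 nM and 28 higher and 2 lower at 300 nM. The single lower call between the doses was 0 to 2 with a library left out. CGB5, a chorionic gonadotropin beta gene, had 54 and 58 reads in DMSO cells, 602 and 501 in 100 nM cells, and 830 and 678 in 300 nM cells (log2 3.29 and 3.86 against DMSO, adjusted p = 2.2e-09 and 1.2e-10, edgeR, and 2.52 and 2.54 with exon length and GC offsets). PSG9, a pregnancy-specific glycoprotein gene, and GATA3, a trophoblast transcription factor gene, rose by log2 values of 4.64 (adjusted p = 5.1e-10) and 4.62 (adjusted p = 9.5e-10) at 300 nM, each 5.50 without DMSO replicate 1. Copies of the CGB and PSG families are nearly identical, so their reads are uncertain. PEG10, itself derived from a retrotransposon, fell by 1.49 and 1.65 on the log2 scale (adjusted p = 1.5e-08 and 1.5e-09). GCM1, the transcription factor gene that activates both syncytins in trophoblast, stayed at 6 and 0 reads in DMSO cells, 4 and 8 in 100 nM cells, and 2 and 8 in 300 nM cells.

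The 6 libraries held 89159112 to 96646427 reads assigned to genes. SETD2 itself had 7490 and 7638 reads in DMSO cells, 3905 and 4536 in 100 nM cells, and 1360 and 2057 in 300 nM cells (log2 -0.84 and -2.06 against DMSO, the second -1.13 with the offsets), and with no intact library this cannot check the genotype label. Of 12 markers of the renal carcinoma line all passed the filter, with a summed level of 3974 to 3999 CPM with DMSO, 4141 to 4377 at 100 nM and 5413 to 6451 at 300 nM, and CA9 had no read with DMSO and passed through decitabine libraries. Of the other 11, 6 were higher and 3 lower at 300 nM against DMSO. Over the 20503 genes with a DMSO library at the filter's minimum, 28.9% were higher and 35.1% lower. The renal transcription factor genes PAX8 (log2 -1.66, adjusted p = 5.1e-10, edgeR) and PAX2 (log2 -0.42, adjusted p = 0.008) and the kidney cadherin gene CDH6 (log2 -3.05, adjusted p = 2.1e-12) were those that fell. With the offsets, PAX2 fell by 1.17 and CDH6 by 1.57. The 10 trophoblast markers summed to 2.57 to 2.84 CPM with DMSO, 20.7 to 21.8 at 100 nM and 123 to 151 at 300 nM. Of them 6 were tested and all 6 were higher at both doses, against 19.0% (100 nM) and 28.9% (300 nM) of the 20503 genes. Most of the trophoblast sum was KRT7, with 10147 and 9387 reads at 300 nM against 18 and 18 with DMSO, while CSH1 and LGALS13 had no read in any library. The 4 fibroblast markers summed to 18.2 to 19.6 CPM with DMSO, 862 to 891 at 100 nM and 951 to 1033 at 300 nM, led by COL1A1. The 6 blood markers stayed at 0.614 to 4.2 CPM and 3 endothelial markers at 0.915 to 3.41 CPM. These sums moved with the same doses as ERVH48-1, and their part in its change was not tested.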

How the data were processed

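The authors deposited whole-number counts of reads per gene, made with featureCounts 1.5.0-p3 on GENCODE v28 models per the file headers, after STAR and SAMtools per the submitters' processing notes. The recorded commands carry no paired-end or strand option. The notes name hg19 and GRCh37, but all 56888 genes whose versioned identifier recurs in GENCODE v29 have the GRCh38 coordinates given there, so coordinates are GRCh38. The authors also deposited a matrix of log2 values whose making is not given in the sources used here. It served as an alternative. Symbols came from GENCODE v29 for 58216 of 58381 genes.

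Counts of all 6 libraries were scaled by TMM, filtered with filterByExpr (23160 genes kept) and fitted with group as factor by edgeR's quasi-likelihood test (edgeR 4.0.16, limma 3.58.1, R 4.3.3), two-sided, Benjamini-Hochberg adjusted over all tested genes and called at an adjusted p under 0.05, with 3 residual degrees of freedom. The biological coefficient of variation was 11.8%. The script was tested on simulated data. Depths were 89159112 to 96646427 assigned reads, and a count of 0 allows 3 reads, or 0.031 to 0.0336 CPM. Floors and 95% exact binomial intervals cover counting error only, since reads without molecular identifiers are not independent molecules. Replicates were not duplicates (chi-square per gene 9.1 to 44.6).

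The genes, lists, markers and tests were chosen with earlier results of these data known. Named genes are the 9, the genes overlapping or nearest them, the 2 most alike for each called gene, and from each list at most 4 called genes, taken by smallest adjusted p; 1 gene nearest to them is not reported here. Members of the lists whose values help to read them (SLC1A5, SLC1A4, PCSK6, GCM1, ERVMER61-1, placental genes with few reads) and marker genes were named after their values were seen. Alternatives were RLE size factors, library totals, the replicate number as a block, only 2 groups, leaving out each library, no low-count filter, counts halved, DESeq2 1.42.0, length and GC offsets, and the log2 matrix. Promoters were from RefSeq. Protein sequences were not used here.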

Additional observations from a re-analysis of the deposited data

How the results depend on the processing

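Over the 7 tested genes and 3 comparisons, 15 alternatives each gave 315 values: 284 kept direction and side of the threshold, 14 lost a call, 15 gained one and 2 changed sign. At 300 nM against DMSO, ERVH48-1, ERVW-1, ERV3-1, ERVK3-1 and ERVK13-1 kept their calls under all 15. The sign changes were between the doses and came from 1 library, with leave-one-out ranges of -0.04 to 1.34 for ERVMER34-1 and -1.56 to 1.98 for ERVV-2. At 100 nM against DMSO, 1 of the genes was called higher instead of 2 (ERVH48-1 and, counted here, ERVV-2) with library totals only, counts halved, length and GC offsets or the log2 matrix, since ERVV-2 dropped out. Against DMSO ERVV-2 could be called only as higher, so its part in the counts of this section is no support for a rise. The number called lower there, 1, became 2 with RLE size factors, DESeq2, offsets or the log2 matrix, and 3 with only the 2 groups compared. Leaving out 1 library gave 1 to 2 higher and 1 to 3 lower at 100 nM, and 1 to 3 higher at 300 nM against DMSO. Over all tested genes, the number lower at 100 nM against DMSO, 4331, was 8032 with offsets and 2883 to 5067 with a library left out, and the number higher at 300 nM against 100 nM, 4623, was 2883 to 4918. The cause was not tested.

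With offsets, lower calls at 100 nM and 300 nM against DMSO were 7 and 6 instead of 3 and 2 among placental genes and 3 and 2 instead of 1 and 1 among receptors and proteases, and between the doses receptors and proteases had 2 instead of 0. Higher calls among receptors and proteases were 1 instead of 2 at 100 nM with RLE size factors, DESeq2 or the log2 matrix, 5 instead of 3 at 300 nM with the block, and 4 instead of 2 between the doses with RLE size factors, DESeq2, the block or the log2 matrix. Lower calls among placental genes at 300 nM were 4 with library totals or the block. Among the other retrovirus genes at 300 nM, offsets gave 1 higher and 2 lower instead of 0 and 1, and between the doses 1 and 0 instead of 0 and 1. With no low-count filter, 4 of the genes listed for a long terminal repeat were higher at 300 nM instead of 2.

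Library totals only moved the median of all genes by -0.11 at 300 nM against DMSO and -0.12 between the doses, and offsets by -0.31 at 100 nM and -0.38 at 300 nM against DMSO.

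With the replicate number as a block, 2 of the genes were called lower at 100 nM against DMSO, ERVK13-1 being added (adjusted p = 0.017), and ERVMER34-1 was called higher (adjusted p = 0.046). Deviations of same-numbered libraries correlated at 0.13, 0.15 and 0.37 over genes, but with only 2 numbers pairing is not established.

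Among the neighbours, offsets turned the sign at 100 nM against DMSO for SMIM13 (0.18), ZNF273 (0.47) and PDPK1 (-0.12). At 300 nM against DMSO they did so for SMIM13 (0.92), ELOVL2 (0.15), ZNF273 (1.36), USP46 (0.09) and ZNF702P (0.87), and between the doses for SMIM13 (0.74), ELOVL2 (0.67), ZNF273 (0.89), USP46 (0.42) and ZNF702P (0.19). RLE size factors, DESeq2 and the log2 matrix turned PDPK1 at 100 nM (-0.01 each), ELOVL2 between the doses (0.04 each) and AC010642.2 between the doses (0.02, 0.02 and 0.01). Library totals turned NDUFV3 at 100 nM (0.02) and PKNOX1 between the doses (-0.01), and NDUFV3 also turned with only the 2 groups compared (0.02) and with no low-count filter (0.01). Leave-one-out ranges that crossed 0 were, at 100 nM against DMSO, -0.19 to 0.01 for SMIM13, -0.19 to 0.04 for ZSCAN22 and -0.01 to 0.01 for NDUFV3. At 300 nM against DMSO AC020915.1 ranged from -1.02 to 0.45. Between the doses the ranges were -0.19 to 0.11 for ELOVL2, -0.27 to 1.15 for AC020915.1, -0.15 to 0.02 for AC010642.2 and -0.20 to 0.03 for ZSCAN22. None of these values was called under its main setting except ELOVL2, ZNF273 and USP46 at 300 nM against DMSO, and USP46 and ZNF702P between the doses.

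Among other named genes, offsets turned FURIN (-0.24 and -0.13), HHLA3 (-0.18 and -0.07) and ERVMER61-1 (0.51 and 1.65) at 100 nM and 300 nM against DMSO, and SLC1A5 at 300 nM (-0.86). At 100 nM SLC1A4 turned with library totals or only 2 groups (0.01 each) and with no low-count filter (0.00). Leave-one-out ranges at 100 nM that crossed 0 were -0.02 to 0.13 for PCSK7, -0.08 to 0.05 for SLC1A5 and -0.05 to 0.05 for SLC1A4.

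Counting only genes at the filter's minimum in at least 1 DMSO library, chosen after seeing the data, left 1 of the genes higher at 100 nM against DMSO instead of 2, and 2 instead of 3 at 300 nM.

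Depth limits ERVFRD-1, ERVV-1 and ERVV-2, which had at most 16, 7 and 28 reads in any library.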

Other observations

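Of the genes examined, 10 were listed for a link to a retroviral long terminal repeat, and 3 of these passed the low-count filter. Whether the repeat acts as a promoter was not checked for each gene. HHLA2 did so only through decitabine libraries and is left out of the following counts. The other 2 were higher at 100 nM and at 300 nM against DMSO (median log2 fold change 0.79 and 1.03). Over the 20503 genes with a DMSO library at the filter's minimum, the medians were -0.07 and -0.14. Of these 20503, 19.0% were higher at 100 nM and 28.9% at 300 nM, and 21.1% and 35.1% were lower. HHLA3, a gene named for its HERV-H long terminal repeat, had 615 and 575 reads in DMSO cells, 882 and 851 in 100 nM cells, and 1078 and 1087 in 300 nM cells, with log2 fold changes of 0.54 and 0.97 against DMSO (adjusted p = 0.006 and 1.7e-05, edgeR). CSF1R, the receptor gene of macrophage colony-stimulating factor, which uses such a repeat as a promoter in Hodgkin lymphoma, had 304 and 335 reads in DMSO cells, 650 and 665 in 100 nM cells, and 685 and 573 in 300 nM cells, with log2 fold changes of 1.04 and 1.09 (adjusted p = 1.6e-04 and 4.9e-05). Gene counts do not show which promoter was used. At 100 nM the number higher was 1 without DMSO replicate 2, and with offsets for length and GC content HHLA3 was at -0.18 and -0.07 and CSF1R at 0.30 at 300 nM (adjusted p = 0.084), so these rises depend on the scaling. The third gene, HHLA2, lay under the filter's minimum in both DMSO libraries.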
